A study of Saccharomyces cerevisiae with 7 samples.

Results

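The genes of the RSC complex were described in budding yeast, Saccharomyces cerevisiae, on 7 one-colour Affymetrix arrays. The members were the probe sets annotated to 10 named subunit genes, and 9 of the 10 were found: STH1 (YIL126W), RSC1 (YGR056W), RSC2 (YLR357W), RSC3 (YDR303C), RSC4 (YKR008W), RSC6 (YCR052W), RSC8 (YFR037C), RSC9 (YML127W) and SFH1 (YLR321C). Each had 1 probe set, and together they were 9 of the 5449 S. cerevisiae genes measured. RSC30, the paralog of RSC3, was not analysed here, because no probe set was named for it in the platform annotation.

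The sth1-3 group (2 arrays) was strain Y4343, of mating type alpha, with the temperature-sensitive allele sth1-3ts and a Pk9 tag on Scc2 marked by TRP1. The scc2-4 group (2 arrays) was strain Y4251, of mating type a, with the allele scc2-4, a Pk9 tag on Scc1 marked by TRP1 and a 9myc tag on Sth1 marked by URA3. Wild type was strain YK700, of mating type a, with 2 arrays at 37C and 1 array at 25C. Its markers were ura3-52, his3-11, 15 and ade2-1, with leu2-3, 112 beside trp1-1 and can1-100, and it was GAL psi+. The labels of the mutant strains do not list these markers. Cells at 37C had been held there for 2 h in rich medium with 2% glucose, and the temperature of the 25C array rests on its title, since its protocol text also describes the shift. Each genotype was represented by 1 strain. Nothing in the labels ties replicates to separate cultures, and p-values therefore cover only array-to-array spread, possibly technical.

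RSC is an essential nucleosome remodeller that uses ATP to slide or evict nucleosomes and that keeps the promoters of many yeast genes free of them. Sth1 is its ATPase, and the other subunits read histone acetylation, bind DNA or hold the complex together. SWI/SNF is a related, less abundant and non-essential remodeller with a paralog of several RSC subunits. The comparisons ask whether transcripts of RSC subunits differ when the RSC ATPase, or the cohesin loader subunit Scc2, loses function at 37C. An allele changes the protein, so the STH1 transcript level does not check the strain labels.

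Signal over background set a limit on everything below. Background was the 95th percentile of the probe sets for fission yeast, S. pombe, on the same array. RSC8 was the 1 member of 9 above it on all 7 arrays, against 2.13% of all genes. RSC6 was above it on 1 wild type array, and the other 7 members on none, as were 77.4% of all genes. The members above background were thus 1 of 9 on each sth1-3 array (10.5% and 8.06% of all genes), 1 on each scc2-4 array (11.1% and 9.41%), 1 and 2 for wild type at 37C (9.01% and 8.92%) and 1 for wild type at 25C (12.9%). For members not above background in either group, differences are given as differences in log2 probe signal, with no fold change, because the transcript has only an upper bound there.

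A technical split ran across the groups. Probe sets for the bacterial spike-in controls of hybridisation had mean log2 signals of 12.3 to 12.5 on sth1-3 replicate 1, scc2-4 replicate 1 and wild type at 25C, called the 3-array set, and of 11.5 to 11.7 on the other arrays, called the 4-array set. The excess of 3' over 5' signal for 25S ribosomal RNA, a sign of RNA or labelling quality, was 3.03 to 4.16 on arrays of the 3-array set, 0.69 on sth1-3 replicate 2 and 0.30 to 0.32 on the other 3 arrays. The 5.8S ribosomal RNA signal on sth1-3 replicate 2 was 8.92, near the 7.50 to 8.40 of the 3-array set and far from the 12.87 to 12.98 of the other arrays in its own set. This array therefore stood apart within the 4-array set. Each mutant had 1 array in either set, and both wild type 37C arrays lay in the 4-array set. Results are therefore given over all arrays and within the 4-array set, where 1 array of a mutant is set against 2 of wild type. In these bulk RNA samples fewer cells of a kind and less RNA per cell cannot be told apart.

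The gene of the mutated ATPase, STH1, had a log2 signal of 8.74 and 9.05 on the sth1-3 arrays, 9.14 and 9.53 on the scc2-4 arrays, and 9.35 and 9.70 on the wild type 37C arrays. Both sth1-3 arrays were below all other arrays of the study, including the wild type 25C array at 9.27. Over all genes, 18.8% had both sth1-3 arrays below both of wild type at 37C, and 9.62% below both of scc2-4. The share below all other arrays was not counted. The means were 8.90 ± 0.22 in sth1-3, 9.33 ± 0.28 in scc2-4 and 9.52 ± 0.25 in wild type at 37C (SD, n = 2 each). The difference of sth1-3 from wild type was -0.63 (95% interval -1.40 to 0.14), and it did not pass the test (adjusted p = 0.824, limma). In scc2-4, whose STH1 gene carries the 9myc tag, the difference was -0.19 (95% interval -0.96 to 0.58, adjusted p = 0.998, limma). Whether the tag or its marker touches the stretch read by the probe set was not tested. On the S. pombe scale STH1 lay at the 63.5th and 71.5th percentile on the sth1-3 arrays, the 77.0th and 88.0th on the scc2-4 arrays and the 82.5th and 89.0th on the wild type 37C arrays.

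RSC1 and RSC2 encode alternative subunits with bromodomains, and a complex holds one or the other. RSC1 had a log2 signal of 8.17 and 9.15 in sth1-3, 8.55 and 9.74 in scc2-4, and 9.64 and 9.55 in wild type at 37C. Both sth1-3 arrays were below both wild type arrays, whereas the scc2-4 arrays lay on either side of them. The difference from wild type was -0.94 in sth1-3 (95% interval -2.05 to 0.17, adjusted p = 0.824, limma) and -0.44 in scc2-4 (95% interval -1.56 to 0.67, adjusted p = 0.998). RSC1 on wild type at 25C was 8.97, and the lower array of each mutant was the one in the 3-array set. With the array set as a term the differences were -0.39 in sth1-3 and 0.10 in scc2-4.

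RSC2 had a log2 signal of 8.99 and 8.56 in sth1-3, 8.34 and 9.35 in scc2-4, and 9.19 and 9.08 in wild type at 37C. Here the array of the 3-array set was the higher one in sth1-3 and the lower one in scc2-4. The difference from wild type was -0.36 in sth1-3 (95% interval -1.28 to 0.57, adjusted p = 0.851, limma) and -0.28 in scc2-4 (95% interval -1.21 to 0.64, adjusted p = 0.998). The paralogs thus differed in how their sth1-3 arrays were ordered, and neither passed the test.

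RSC4, whose protein binds acetylated histone H3 through tandem bromodomains, had the largest difference of the 9 members from wild type in sth1-3. Its log2 signal was 6.86 and 7.47 in sth1-3, 7.32 and 8.10 in scc2-4, 7.86 and 8.50 in wild type at 37C, and 7.50 in wild type at 25C. The sth1-3 arrays lay below both wild type 37C arrays, and the scc2-4 arrays overlapped them. The sth1-3 difference was -1.01 (95% interval -1.97 to -0.06), with an unadjusted p of 0.040 that did not survive adjustment over all genes (adjusted p = 0.824, limma). In scc2-4 the difference was -0.47 (95% interval -1.43 to 0.49, adjusted p = 0.998, limma). On the S. pombe scale RSC4 was dim, from the 6.64th to the 48.5th percentile, so most fission yeast probe sets gave more signal on every array.

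RSC9, an essential subunit that binds DNA, varied least. Its log2 signal was 9.67 and 9.61 in sth1-3, 9.49 and 9.72 in scc2-4, 9.66 and 9.90 in wild type at 37C and 9.64 in wild type at 25C, a range of 0.41 over the 7 arrays. The arrays of sth1-3 and wild type overlapped, and so did those of scc2-4 and wild type. The difference from wild type was -0.14 in sth1-3 (95% interval -0.86 to 0.57, adjusted p = 0.933, limma) and -0.18 in scc2-4 (95% interval -0.89 to 0.54).

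RSC3 encodes a zinc cluster protein that recognises a GC-rich promoter motif, and it was the 1 member with a higher mean in sth1-3. It measured 8.48 and 7.73 in sth1-3, 7.60 and 7.58 in scc2-4, 7.44 and 7.66 in wild type at 37C and 7.95 in wild type at 25C. The sth1-3 arrays exceeded both wild type 37C arrays, though replicate 2 did so by less than the wild type arrays differed from each other. The difference was 0.56 (95% interval -0.26 to 1.38, adjusted p = 0.824, limma), and in scc2-4 it was 0.04 (95% interval -0.78 to 0.86). RSC3 was not above background on any array.

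Of the subunits with a structural role, RSC8, the paralog of SWI3, gave a measured level in every group. Its log2 signal was 11.01 and 10.73 in sth1-3, 11.50 and 10.90 in scc2-4, and 10.90 and 11.02 in wild type at 37C. The wild type 25C array was the highest, at 11.58, beside scc2-4 replicate 1 of the same array set. Means were 10.87 ± 0.20 in sth1-3, 11.20 ± 0.43 in scc2-4 and 10.96 ± 0.08 in wild type at 37C (SD, n = 2 each), and the arrays of either mutant overlapped those of wild type. The difference from wild type was -0.09 in sth1-3 (95% interval -0.88 to 0.70, adjusted p = 0.970, limma) and 0.24 in scc2-4 (95% interval -0.55 to 1.03, adjusted p = 0.998). At 37C against 25C in wild type it was -0.62 (95% interval -1.58 to 0.35, adjusted p = 0.512), with the 25C array in the other array set.

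RSC6, the paralog of SNF12, lay at the edge of background. It measured 9.72 and 9.56 in sth1-3, 9.42 and 9.93 in scc2-4, and 9.91 and 10.08 in wild type at 37C. Both sth1-3 arrays were below both wild type arrays, and wild type replicate 2 was the array above background. The difference was -0.35 in sth1-3 (95% interval -1.11 to 0.41, adjusted p = 0.830, limma) and -0.32 in scc2-4 (95% interval -1.07 to 0.44).

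SFH1, the paralog of SNF5, had the widest replicate gap of the members. It measured 8.45 and 8.74 in sth1-3, 7.48 and 8.97 in scc2-4, 8.76 and 9.04 in wild type at 37C and 8.30 in wild type at 25C. The scc2-4 replicates differed by 1.49, and replicate 2 lay between the wild type arrays. The difference from wild type was -0.30 in sth1-3 (95% interval -1.41 to 0.81, adjusted p = 0.903, limma) and -0.68 in scc2-4 (95% interval -1.79 to 0.43, adjusted p = 0.998).

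**Figure D1:**
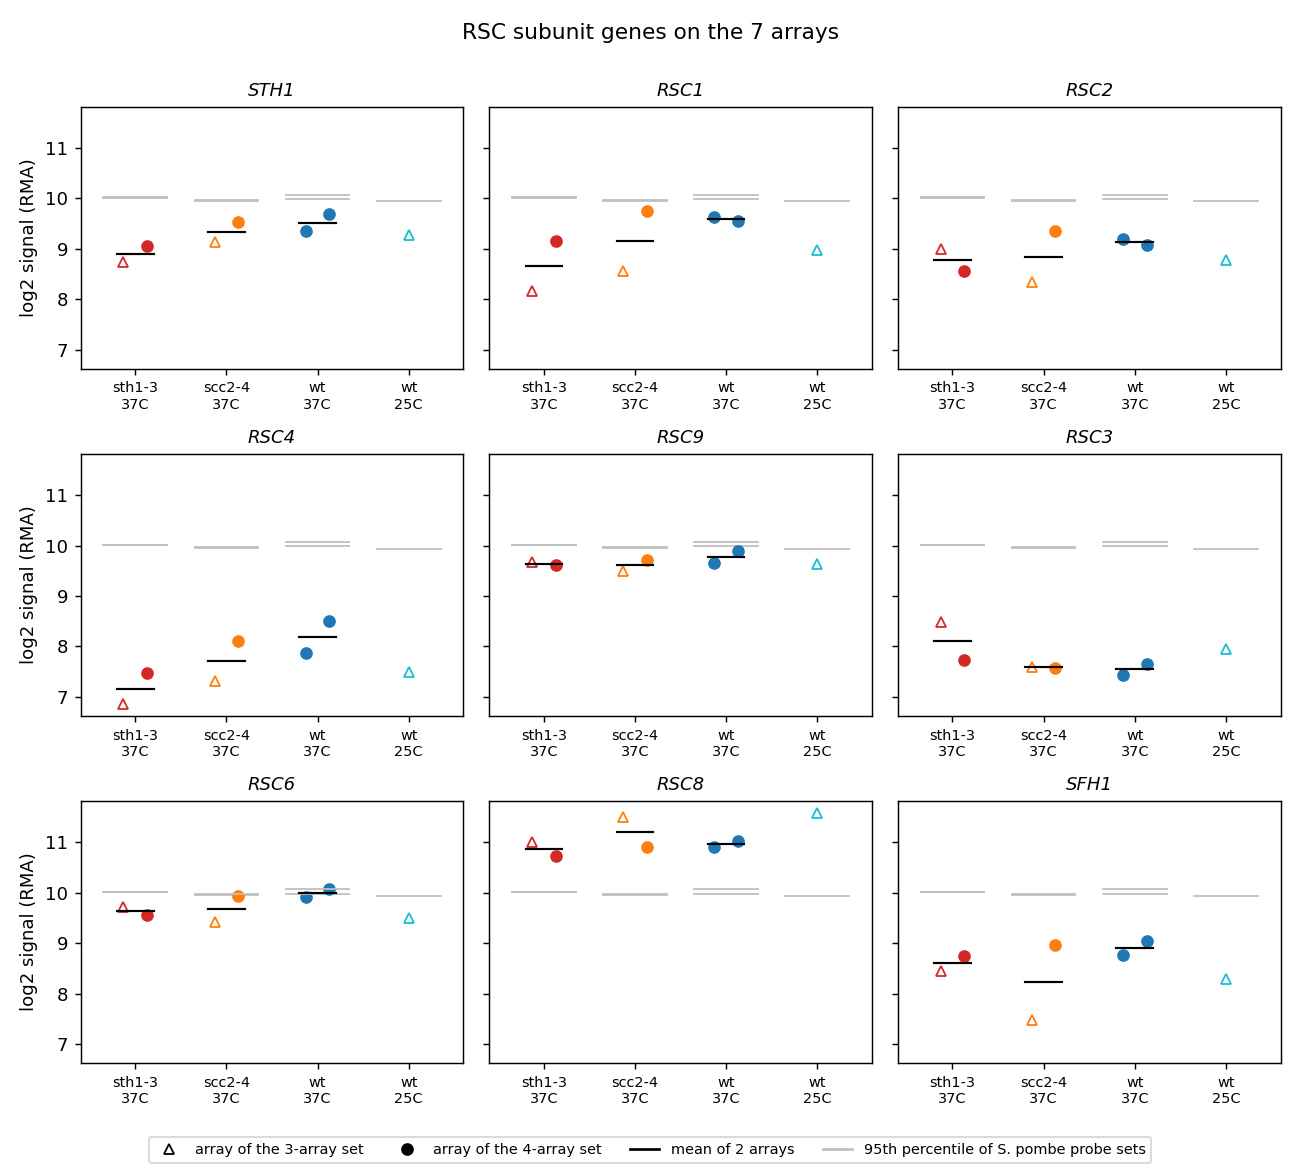
Log2 signal (vertical axis) of the 9 RSC genes on each array, by strain and temperature (horizontal axis), with triangles for the 3-array set, circles for the 4-array set, black bars for means of 2 arrays and grey bars for each array's background. RSC8 alone lies above the grey bars on all 7 arrays, and in STH1 both sth1-3 arrays (8.74 and 9.05) are the lowest of the panel.

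Over the members as a whole, 0 of 9 passed the threshold in sth1-3 against wild type at 37C (adjusted p from 0.824 to 0.970, limma), where 0.00% of all genes were called. At an unadjusted p under 0.05 there was 1 of 9, RSC4, against 3.78% of all genes. The mean was lower in sth1-3 for 8 members, against 47.0% of all genes, with a median difference of -0.35 against 0.03 over all genes. Both arrays of sth1-3 were below both of wild type for 6 members, namely STH1, RSC1, RSC2, RSC4, RSC6 and SFH1, against 18.8% of all genes, and above them for RSC3, against 18.0%. Of these 7 members, none was above background in sth1-3, so the count is one of probe signals and not of measured transcript levels.

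In scc2-4 against wild type at 37C, again 0 of 9 members passed (adjusted p = 0.998 for each, limma), with 0.00% of all genes called and 0 members at an unadjusted p under 0.05, against 1.25% of all genes. The mean was lower for 7 members, against 50.5% of all genes, with a median difference of -0.28 against -0.01 over all genes. No member's arrays separated from those of wild type, against 14.1% of all genes separated as lower and 15.0% as higher. The comparisons of both mutants share the wild type 37C arrays. Intervals reached from -2.05 to 1.38 in sth1-3 and from -1.79 to 1.03 in scc2-4, and a log2 difference of -1 lay within the interval of 6 of 9 members in sth1-3 and 5 of 9 in scc2-4. In the other 3 members in sth1-3 and 4 in scc2-4 the interval lay above -1. With the array set as a term, the median difference of the members was -0.26 in sth1-3 and -0.13 in scc2-4.

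**Figure D2:**
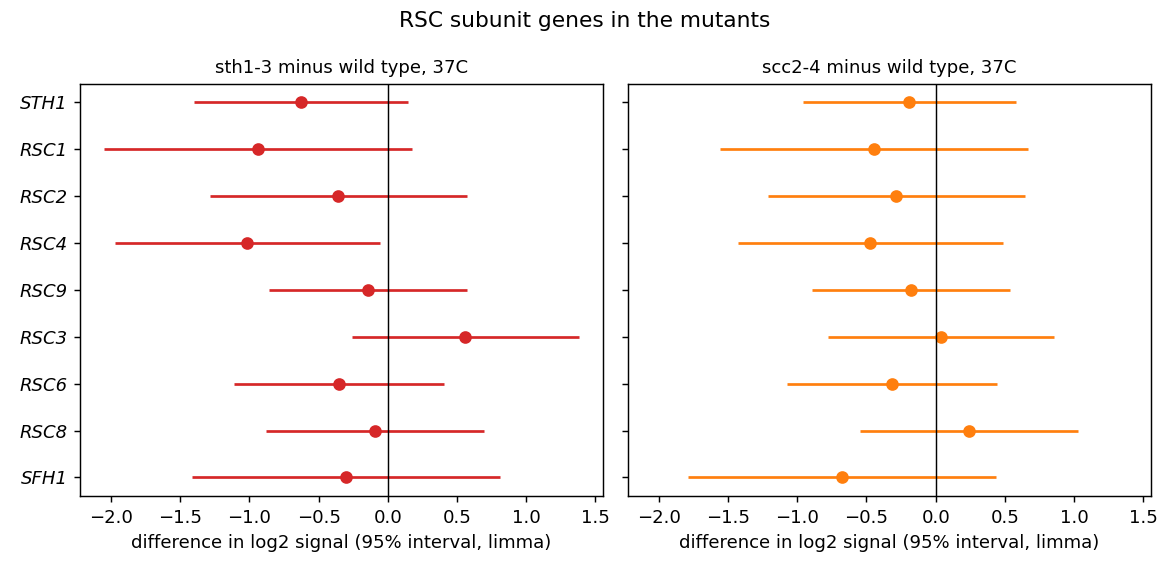
Difference in log2 signal from wild type at 37C (horizontal axis) for the 9 RSC genes (rows) in sth1-3 (left) and scc2-4 (right), with points for the limma estimate and lines for its 95% interval, not adjusted for multiple testing. Each interval includes 0 except that of RSC4 in sth1-3, from -1.97 to -0.06, whose adjusted p was 0.824.

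Within the 4-array set each mutant has 1 array. That of sth1-3 stood apart in 5.8S ribosomal RNA and, by less, in the 25S difference, as given above, and their part in its values was not tested. On sth1-3 replicate 2, 8 of 9 members were below the wild type 37C mean, with a median of -0.43, against a median of -0.06 over all genes, 56.8% of which were below. The members lay between -0.71 for RSC4 and 0.18 for RSC3, with STH1 at -0.47, RSC1 at -0.45, RSC2 at -0.57, RSC6 at -0.43, RSC8 at -0.23, RSC9 at -0.18 and SFH1 at -0.16. For 6 members, namely STH1, RSC1, RSC2, RSC4, RSC6 and RSC8, the signal was lower by more than the gap between the wild type replicates, against 22.2% of all genes. On scc2-4 replicate 2, 4 of 9 members were below the wild type mean, with a median of 0.01, against 55.2% of all genes and a median of -0.03 over them. The members had a span from -0.08 for RSC4 to 0.22 for RSC2. Beyond the gap between the wild type replicates, 2 members, RSC1 and RSC2, were higher, against 14.9% of all genes. By the same measure 0 were lower, against 11.8%. In the fit of the 4 arrays alone 0 members were called in either mutant (adjusted p = 0.999 in sth1-3 and 1.00 in scc2-4 for each, limma with 1 residual degree of freedom).

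On each array of the 3-array set the same 7 members were below the wild type 37C mean and RSC3 and RSC8 above it. The same mean is subtracted from each array, so the signs are not independent. Against the wild type 37C mean, 7 of 9 members were lower on sth1-3 replicate 1 (median -0.28), 7 on scc2-4 replicate 1 (median -0.57) and 7 on the wild type 25C array (median -0.35), with medians over all genes of 0.11, 0.01 and 0.17. Of all genes, 44.0%, 49.1% and 39.9% were lower on these arrays. RSC3 was higher on all 3 of these arrays, by 0.94, 0.05 and 0.40, and so was RSC8, by 0.05, 0.54 and 0.62. The bacterial controls and the 25S ribosomal RNA difference given above separated the same arrays, and their part in these differences was not tested.

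**Figure D3:**
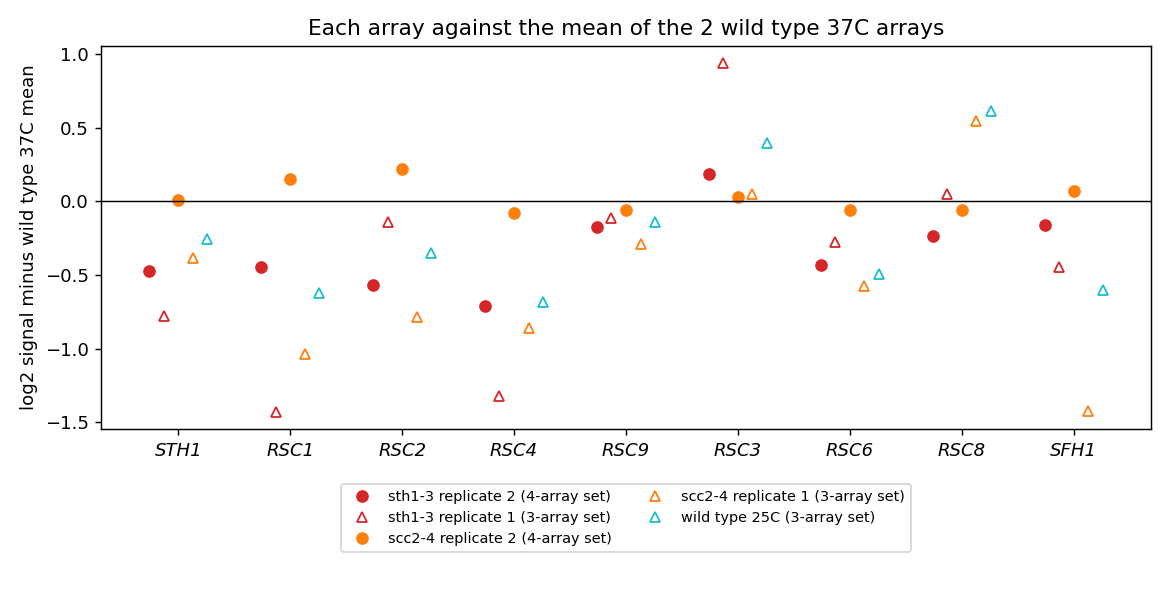
Log2 signal of each array minus the mean of the 2 wild type 37C arrays (vertical axis) for the 9 RSC genes (horizontal axis), with circles for arrays of the 4-array set and triangles for the 3-array set. The scc2-4 circle lies between -0.08 and 0.22 in every gene, the sth1-3 circle is below 0 in 8 of 9, and the triangles are below 0 in 7 genes and above it in RSC3 and RSC8.

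The direct comparison of sth1-3 with scc2-4 tests whether the mutants differ from each other. It gave 0 of 9 members past the threshold (adjusted p = 1.00 for each, limma), with 0.00% of all genes called, and 0 at an unadjusted p under 0.05, against 0.385% of all genes. The mean was lower in sth1-3 for 6 members, against 47.2% of all genes, with a median difference of -0.07, against 0.02 over all genes. Both sth1-3 arrays were below both scc2-4 arrays for STH1 (difference -0.44, 95% interval -1.21 to 0.33), a separation found in 9.62% of all genes, and above them for RSC3 (0.52, 95% interval -0.30 to 1.34), found in 8.44%. Because each set holds 1 array of each mutant, the difference can be read within sets, though the arrays of a set were not alike. The 5.8S ribosomal RNA signal was 8.92 on sth1-3 replicate 2 and 12.98 on scc2-4 replicate 2. On replicate 1 the 25S ribosomal RNA difference was 4.16 in sth1-3 and 3.03 in scc2-4. Their part in the values below was not tested. The difference of sth1-3 from scc2-4 for STH1 was -0.48 between arrays of the 4-array set and -0.39 between those of the 3-array set, with -0.60 and -0.39 for RSC1, -0.63 and -0.46 for RSC4, and -0.17 and -0.49 for RSC8. These 4 of 9 members were lower in both sets, against 22.9% of all genes, and RSC3 was higher in both (0.16 and 0.89). RSC2, RSC6, RSC9 and SFH1 were lower within the 4-array set but higher within the other, with SFH1 at -0.22 and 0.97.

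Wild type at 37C against 25C had 1 array at 25C, in another array set than both 37C arrays, so temperature and array set cannot be told apart within wild type. The mean was higher at 37C for 7 members and lower for RSC3 and RSC8, against 60.1% of all genes lower, and 0 of 9 passed (adjusted p from 0.512 to 0.876, limma), with 0.00% of all genes called. At an unadjusted p under 0.05 there were 0 members, against 10.2% of all genes. The median difference was 0.35, against -0.17 over all genes. With the array set as a term, which the mutants' arrays allow, the median was -0.01.

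Group means ran in one order, sth1-3, wild type at 25C, scc2-4 and wild type at 37C from low to high, in STH1, RSC1, RSC2 and RSC4. In none of these genes did a tested pair of groups differ by the adjusted test. Wild type at 25C stands for 1 array, in another array set than wild type at 37C. The share of all genes in this order was not counted. Over the 7 arrays, STH1 and RSC4 correlated at r = 0.97, RSC1 and RSC4 at 0.90, RSC6 and RSC9 at 0.88, RSC2 and RSC6 at 0.86, and STH1 and RSC1 at 0.86. Of the 36 pairs of members 14 correlated below 0, and each of these held RSC3 or RSC8. These correlations are descriptions over 7 arrays that are split between the array sets, and the part of that split in them was not tested. Whether the arrays were normalized together is not given. The genes most like STH1 over the same arrays were CUE3 (r = 0.99), GAL1 (0.98), POM152 (0.98), ECM29 (0.98) and MAD1 (0.98), none of them above background on any array.

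The other RSC subunits were a list of 7 genes outside the members, and all 7 were measured. NPL6, LDB7, RSC58 and HTL1 encode further subunits of the complex, ARP7 and ARP9 its actin-related proteins and RTT102 their partner. In sth1-3 against wild type at 37C, 0 of 7 passed, 6 had a higher mean and ARP9 a lower one, with a median of 0.09. In scc2-4 it was 0 of 7, with 5 higher, 2 lower and a median of 0.03. Over all genes 47.0% were lower in sth1-3 (median 0.03) and 50.5% in scc2-4 (median -0.01). ARP7 measured 9.90 and 8.19 in sth1-3, 9.24 and 8.57 in scc2-4 and 8.58 and 9.16 in wild type at 37C, with the higher array of each mutant in the 3-array set. RSC58 measured 7.83 and 7.10 in sth1-3 and 7.48 and 7.45 in scc2-4, against 7.13 and 7.40 in wild type at 37C. LDB7 was the 1 gene of the 7 above background, on scc2-4 replicate 1 (9.98). In wild type all 7 had a lower mean at 37C than on the 25C array (median -0.50), against 60.1% of all genes (median -0.17). Of the 9 members 7 had a higher one. The 25C array was in another array set than both 37C arrays, so temperature and array set cannot be told apart. HTL1, at 5.53 to 5.98, was dimmer than nearly all S. pombe probe sets. On replicate 2 of the mutants, in the 4-array set, the median of these 7 genes was -0.03 in sth1-3 and 0.08 in scc2-4.

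The list of SWI/SNF subunits held 9 genes, all measured. It left out ARP7, ARP9 and RTT102, which were counted only among the other RSC subunits. Of the 9 listed genes, 0 passed in either mutant. Their median was -0.36 in sth1-3, with 7 of 9 lower, and -0.23 in scc2-4, with 7 of 9 lower. These medians are close to those of the RSC members. Over all genes the medians were 0.03 and -0.01, with 47.0% and 50.5% lower. SNF2, the ATPase paralogous to STH1, measured 9.07 and 10.33 in sth1-3 and 8.77 and 10.42 in scc2-4, against 10.58 and 9.71 in wild type at 37C. Its replicate gap in each mutant followed the array set and exceeded 1 log2 unit. SNF5, the paralog of SFH1, measured 9.64 and 9.09 in sth1-3 and 8.83 and 9.71 in scc2-4, against 9.47 and 9.98 in wild type, and overlapped in both mutants. SNF12, the paralog of RSC6, measured 7.50 and 7.41 in sth1-3 and 6.80 and 7.83 in scc2-4, all below the 8.04 and 8.12 of wild type. Arrays separated as lower in 18.8% of all genes for sth1-3 and 14.1% for scc2-4. SWI3, the paralog of RSC8, stayed below background, at 7.31 and 6.97 in sth1-3, 6.85 and 6.95 in scc2-4 and 6.90 and 7.36 in wild type. SNF5 and SNF12 were also above background on 0 arrays, and SNF2 on 3.

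The SWI/SNF gene with an unadjusted p under 0.05 in scc2-4 was SWI1, a subunit with an ARID domain (difference -0.93, unadjusted p = 0.049, adjusted p = 0.998, limma). It averaged 7.45 ± 0.63 in scc2-4 and 7.56 ± 0.45 in sth1-3, against 8.38 ± 0.07 in wild type at 37C (SD, n = 2 each), and measured 7.43 in wild type at 25C. No array of either mutant reached the wild type 37C arrays. Such a separation was found in 18.8% of all genes for sth1-3 and 14.1% for scc2-4. SWI1 was above background on 0 arrays, so these are differences in probe signal. On replicate 2 of the mutants, in the 4-array set, the SWI/SNF median was -0.16 in sth1-3 and -0.18 in scc2-4, where the RSC members had -0.43 and 0.01.

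**Figure D4:**
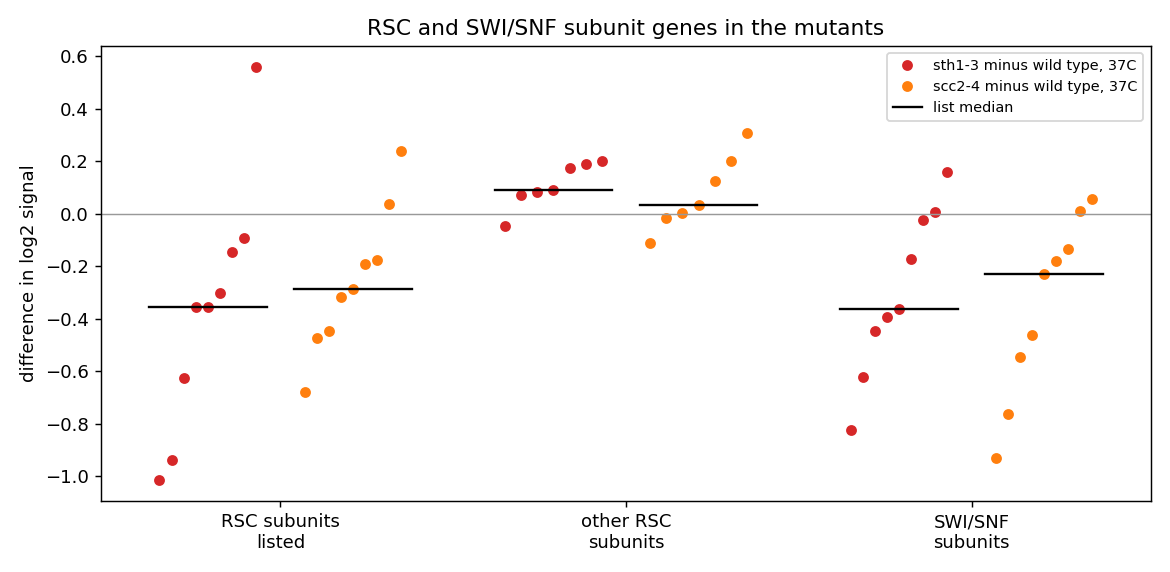
Difference in log2 signal from wild type at 37C (vertical axis) for each measured gene of 3 lists (horizontal axis), red for sth1-3 and orange for scc2-4, with black bars for list medians. The medians are -0.35 and -0.28 for the RSC members, 0.09 and 0.03 for the other RSC subunits and -0.36 and -0.23 for SWI/SNF, and no gene shown passed the adjusted threshold.

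Genes of mating type were dim. No array showed any of 7 genes specific to a cells above background, nor 5 of 6 specific to alpha cells. The other, HMLALPHA1, whose copy at the mating type locus is active in alpha cells, was above background on 1 array, sth1-3 replicate 1 (10.27). It measured 8.41 on the other sth1-3 array and at most 9.07 on the arrays of the other groups. MF(ALPHA)1, the main alpha pheromone gene, measured 9.58 and 9.14 in sth1-3, the alpha strain, 8.77 and 7.19 in scc2-4 and 8.59 and 8.53 in wild type at 37C. Both sth1-3 arrays were the highest, with an unadjusted p of 0.024 against scc2-4 (adjusted p = 0.9998, limma). Against wild type at 37C the unadjusted p was 0.146 (adjusted p = 0.824, limma). Of the 6 alpha-specific genes, 4 had a lower mean in sth1-3 than in wild type at 37C. Arrays separated as lower for STE3 and SAG1, and as higher for MF(ALPHA)1. Of the 7 a-specific genes 4 were lower, with MFA2, BAR1 and AGA2 separated as lower and STE2 as higher. Over all genes, 47.0% had a lower mean in sth1-3, 18.8% separated as lower and 18.0% as higher.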

How the data were processed

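The authors deposited a log2 intensity for each probe set of each array, made with RMA in affy per the submitters' processing notes, which give no version. RMA equalises the distributions of the arrays, which hides a change in total RNA. Whether all arrays were normalized together is not given in the sources used here. Scanner files were not used here. Of 10928 probe sets, 5498 had 1 S. cerevisiae gene symbol, updated through the R64 reference (12 changed), 1746 had 1 S. pombe symbol, 1 had several and 3683 were unnamed here. The brightest probe set stood for a gene. The number of arrays limits the precision.

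All 7 arrays were fitted with a mean per group in limma 3.58.1 (lmFit, eBayes, R 4.3.3; 3 residual and 5.26 prior degrees of freedom), two-sided, with Benjamini-Hochberg adjustment over 5449 genes and a threshold of 0.05. The procedure was tested on simulated data with larger changes than any member showed and with no split into array sets. That test does not tell how well changes of the members' size would be found. Alternatives were other fits, filters and normalizations, and leaving out each 37C replicate. Members, lists and tests were chosen with earlier results of these data known. By rule, all members and other RSC subunits, the SWI/SNF paralogs, list genes with an unadjusted p under 0.05 in a mutant against wild type and the 5 genes most like STH1 were named. ARP7, RSC58 and the other examples shown with values were taken from those lists. No sequence is printed.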

Additional observations from a re-analysis of the deposited data

How the results depend on the processing

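No RSC member was called in any of the 4 comparisons under any alternative (lowest adjusted p 0.195 in sth1-3, with that strain's replicate 2 left out, and 0.356 in scc2-4, both against wild type at 37C, limma). Replicate numbers did not pair the arrays: deviations correlated at 0.55 between the mutants but at -0.20 and -0.36 with wild type. The replicate block left the medians at -0.35 (sth1-3) and -0.28 (scc2-4) and called 1 gene in each, YDR261C-D, named after its value was seen. The shift from 25C could not be fitted with the block or within the 4-array set.

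With the array set as a term the sign turned for SFH1 in sth1-3 (0.14), for RSC1 (0.10) and RSC3 (-0.15) in scc2-4, and for STH1 (-0.10), RSC1 (-0.46), RSC4 (-0.01) and SFH1 (-0.29) at 37C against 25C, whose median became -0.014. The median moved to -0.26 in sth1-3 and -0.13 in scc2-4, and RSC1 in sth1-3 to -0.39. Within the 4-array set it turned in scc2-4 for STH1 (0.0078), RSC1 (0.15), RSC2 (0.22), RSC8 (-0.060) and SFH1 (0.067), median 0.0078, and in sth1-3 against scc2-4 for RSC9 (-0.12) and SFH1 (-0.22), median -0.37. RSC9 there also turned with arrays centred on the S. cerevisiae (-0.00066) or S. pombe median (-0.013). With dim genes left out only RSC8 remained, at -0.090 in sth1-3, 0.24 in scc2-4, -0.33 between the mutants and -0.62 with temperature.

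With 1 array left out the median ranged over -0.57 to 0.0078 in scc2-4 (its replicate 2 or 1 left out), -0.44 to -0.27 in sth1-3 and -0.37 to 0.15 between the mutants. In scc2-4 the range was -0.39 to 0.0078 for STH1, -1.04 to 0.15 for RSC1, -0.79 to 0.22 for RSC2, -0.074 to 0.15 for RSC3, -0.060 to 0.54 for RSC8 and -1.42 to 0.067 for SFH1. In sth1-3 RSC8 ranged from -0.23 to 0.052. Between the mutants the range was -1.09 to 0.10 for RSC1, -0.57 to 0.43 for RSC2, -0.29 to 0.22 for RSC6, -0.083 to 0.15 for RSC9 and -0.37 to 1.12 for SFH1. The cause of these moves was not tested.

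Over all genes, 0 were called in each comparison. The array set term called 10 in sth1-3, 7 in scc2-4 and 4 with temperature, the 4-array set 13, 6 and, between the mutants, 1 (YLR154C-H), and a fit of the wild type arrays alone 911 with temperature. Leaving out scc2-4 replicate 1 or 2 called YBL100W-B with temperature, and leaving out replicate 2 called it in scc2-4. The genes of these counts of 4 or fewer were named after their values were seen; the 4 were YBL100W-B, YDR261C-D, YDR261W-B and YDR316W-B. With background at the 90th percentile 2 to 4 members, in place of 1, were above it on 4 arrays. On wild type 37C replicate 2, RSC9 was then above it beside RSC6 and RSC8. At the 99th percentile 1 member, in place of 2, was above it on wild type 37C replicate 2.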

Other observations

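General regulatory factors, DNA-binding proteins that with RSC keep promoters free of nucleosomes, were a list of 6 genes, all measured. None passed the threshold in either mutant against wild type at 37C. In sth1-3 all 6 had a lower mean, with a median difference of -0.27, against 47.0% of all genes, and in scc2-4 4 of 6, with a median of -0.08, against 50.5%. Within the 4-array set 4 of 6 were lower in sth1-3 (median -0.34), against 56.8% of all genes (median -0.06). In scc2-4 5 of 6 were lower there (median -0.06), against 55.2% (median -0.03). All 6 were also below the wild type 37C mean on the wild type 25C array (median -0.45), against 39.9% of all genes (median 0.17). That array is in the other array set. REB1 measured 8.40 and 8.58 in sth1-3 and 8.75 and 8.82 in scc2-4, against 9.05 and 9.11 in wild type at 37C. Neither mutant thus overlapped wild type. Arrays separated as lower for 4 of the 6 genes in sth1-3, against 18.8% of all genes. In scc2-4 they did so for 2 of the 6, against 14.1%. RAP1 measured 7.42 and 7.64 in sth1-3 and 8.26 and 8.02 in scc2-4, against 7.98 and 8.21 in wild type. REB1 and RAP1 were chosen as examples after their values were seen. Of the 6, MCM1 alone was above background, on all 7 arrays, at 11.08 and 10.87 in sth1-3, 10.36 and 11.00 in scc2-4 and 11.08 and 11.52 in wild type at 37C.

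Among the ATPases of 6 other remodellers, none passed. ISW1, of the ISWI family, was the 1 gene with an unadjusted p under 0.05 in sth1-3 (difference 0.79, unadjusted p = 0.039, adjusted p = 0.824, limma). It measured 7.92 and 7.80 in sth1-3 and 7.83 and 7.52 in scc2-4, against 6.92 and 7.23 in wild type at 37C and 8.23 in wild type at 25C, with no array above background.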
